A study of Astyanax mexicanus with 20 samples.

Results

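The genes described here encode the machinery of excitation-contraction coupling and calcium handling in fish skeletal muscle. They were taken by gene name as all entries that begin with ryr, atp2a, casq, cacna, cacnb, cacng, trdn, jph, jsrp, stac, srl, fkbp1, stim1, stim2 or orai, which gave 82 of the 27420 genes in the deposited table. Of these, 40 passed the filter of at least 1 TPM (transcript abundance normalised for gene length and library total) in at least 2 libraries and were tested. The other 42 did not, and 6 of them were listed at 0 in every library.

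In a muscle fibre the electrical signal is carried inward by membrane tubules, where the voltage sensor, a calcium channel built around Cacna1s, touches the ryanodine receptor in the wall of the calcium store, the sarcoplasmic reticulum. The ryanodine receptor then releases calcium, which starts contraction, and the pump Atp2a returns it to the store, where calsequestrin binds it. Junctophilins hold the 2 membranes together at the junction, called the triad, and Stim and Orai proteins refill the store from outside the cell.

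RNA was sequenced from skeletal muscle of Astyanax mexicanus, a fish with an eyeless cave form (troglobitic cavefish in the labels) and a river-dwelling surface form. Cave and surface fish were injected with cardiotoxin, a venom toxin that destroys muscle fibres, and sampled at 1 day post injury (dpi; 3 libraries per form), 7 dpi (2 per form) or 14 dpi (2 per form). The controls of each form (3 libraries) received a saline (PBS) injection with no stated day, and all 20 libraries carry the same note of free-running darkness. The labels do not give age, sex, toxin dose or which muscle was injected. They also do not say whether replicate libraries are different animals, so a p-value here reflects only how much the libraries spread, which may be technical.

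Levels are TPM divided by a scaling factor per library (scaled TPM), which allows levels of different genes to be compared per length. Changes are differences of log2(scaled TPM + 1) with the standard error (SE) of the limma model, which understate the change of low genes, and every adjusted p is from limma with Benjamini-Hochberg adjustment over the 16884 genes kept. A gene was called at an adjusted p under 0.05. The read depth of the libraries is unknown, so no counting interval can be given.

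The fast fibre markers identified the tissue. The creatine kinase gene ckma had 14262 to 26599 TPM. The heart list (5 entries) summed to 7.48 to 226 TPM in a library, which came almost wholly from the cardiac myosin entry MYH6, while the cardiac gene myl7 had at most 0.16 TPM. MYH6 was called higher in cave than in surface muscle at 14 dpi (2.56) and was not called at 1 dpi. Keratin and other skin markers (6 genes tested) summed to 10370 TPM in cave 1 dpi replicate 3 and 1992 TPM in cave control replicate 2, each more than 3 times the next library of its group. Some results that use these 2 cave libraries are therefore also given without them, and 31 of 48 single calls held in those fits. Where these fits are not mentioned for a call, their outcome is not given. Surface muscle at 1 dpi also had more of these markers, with 2525 TPM in replicate 2, 1686 TPM in replicate 3 and 737 TPM in replicate 1, against 377 to 572 TPM in surface controls. Macrophage markers summed to 1130 to 1770 TPM in cave muscle at 1 dpi against 165 to 340 TPM in cave controls, and 867 to 1330 TPM in surface muscle at 1 dpi against 168 to 353 TPM in surface controls. Neutrophil markers summed to 207 to 570 TPM in cave muscle at 1 dpi against 19.2 to 27.9 TPM in its controls, and to 166 to 270 TPM in surface muscle at 1 dpi against 26.9 to 32.0 TPM. Fast fibre markers summed to 191000 to 231000 TPM in cave muscle at 1 dpi against 244000 to 300000 TPM in cave controls, and to 102000 to 258000 TPM in surface muscle at 1 dpi against 294000 to 340000 TPM in surface controls. At 1 dpi 12 of 13 macrophage genes were called higher in cave and 3 of 13 in surface muscle, 10 of 10 and 7 of 10 neutrophil genes were called higher, and 7 of 21 and 13 of 21 fast fibre genes were called lower. Of the fibroblast genes 1 of 9 was called lower in cave and 5 of 9 in surface muscle, with 2 of 9 higher in each. In cave muscle 2 of 8 endothelium, 2 of 5 smooth muscle and 3 of 11 neuron and glia genes were called lower, and in surface muscle 0 of each, with 1 of 8 endothelium genes higher. Among all genes at 1 dpi, 9.07% were called lower and 15.7% higher in cave muscle. In surface muscle these shares were 6.41% and 8.35%, so counts of 1 gene in such short lists are near the background. Neuron and glia markers summed to at most 252 TPM, led by mpz at up to 132 TPM, with snap25a at up to 50.3 and elavl3 at up to 1.6 TPM.

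One day after injury the core of the coupling machinery was lower in both forms relative to the median gene. In cave muscle 17 of the 40 genes were called lower and 2 higher (all genes: 9.07% lower, 15.7% higher, 24.8% in either direction). In surface muscle 14 were called lower and 3 higher (all genes: 6.41% lower, 8.35% higher, 14.8% in either direction). The median change of the 40 genes was -0.73 in cave muscle and -0.39 in surface muscle, where the median of all genes tested was 0.04 and 0.02. The cave count was 12 (2 higher, 10 lower) without cave control replicate 3 or without cave 1 dpi replicate 2. Among all genes, 2029 and 2052 were called higher in these fits and 943 and 811 lower. The main fit called 2659 higher and 1532 lower. Without the 2 cave libraries with high skin markers the cave count was 14, and the all-gene share of that fit is not given. The surface count was 10 (3 higher, 7 lower) without surface control replicate 1 or without surface 1 dpi replicate 3. It was 13 (3 higher, 10 lower) without surface 1 dpi replicate 2, its library richest in skin markers. Among all genes, 1126, 1136 and 918 were called higher in these fits, in that order, and 567, 626 and 687 lower. The main fit called 1410 higher and 1082 lower. The surface count was 3 when only the compared groups were fitted, which have fewer libraries. The cave fit of this kind has as many libraries, and its count is not given here. The cause of the lower surface count was not tested.

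This direction is relative to the scaling. Statements that levels of groups were separate or overlapped, here and below, are on scaled values. At 1 dpi some separate groups overlapped in the deposited TPM. Among them were cacna1sb in cave muscle, cacnb1, jph1b, srl and atp2a1l in surface muscle, and ryr1b and stim2a in both forms. In TPM without scaling, where the median of all genes moved by 0.40 in cave and 0.57 in surface muscle at 1 dpi, the calls were 5 higher and 1 lower in cave muscle (all genes: 25.5% higher, 1.3% lower) and 8 higher and 4 lower in surface muscle (all genes: 34.3% higher, 1.13% lower). Set against the mean of 21 fast fibre genes, which themselves had a median change of -0.97 in cave and -1.49 in surface muscle on the scaled values, 7 of the 40 genes were called higher and 0 lower in cave muscle (all genes: 40.5% higher, 0.13% lower), and 20 higher and 0 lower in surface muscle (all genes: 75.6% higher, 0.284% lower). That scale moved the median of all genes to 0.83 in cave and 1.2 in surface muscle, so these higher calls were a smaller share than among all genes. At an unadjusted p under 0.05, 24 of the 40 genes passed in cave and 23 in surface muscle on the scaled values. The share of all genes at this unadjusted threshold was not taken, so such counts, here and below, cannot be set against a background. In these whole-muscle samples fewer fibres and less RNA per fibre cannot be told apart, and the part of the changed cell mixture in these results was not tested.

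**Figure D1:**
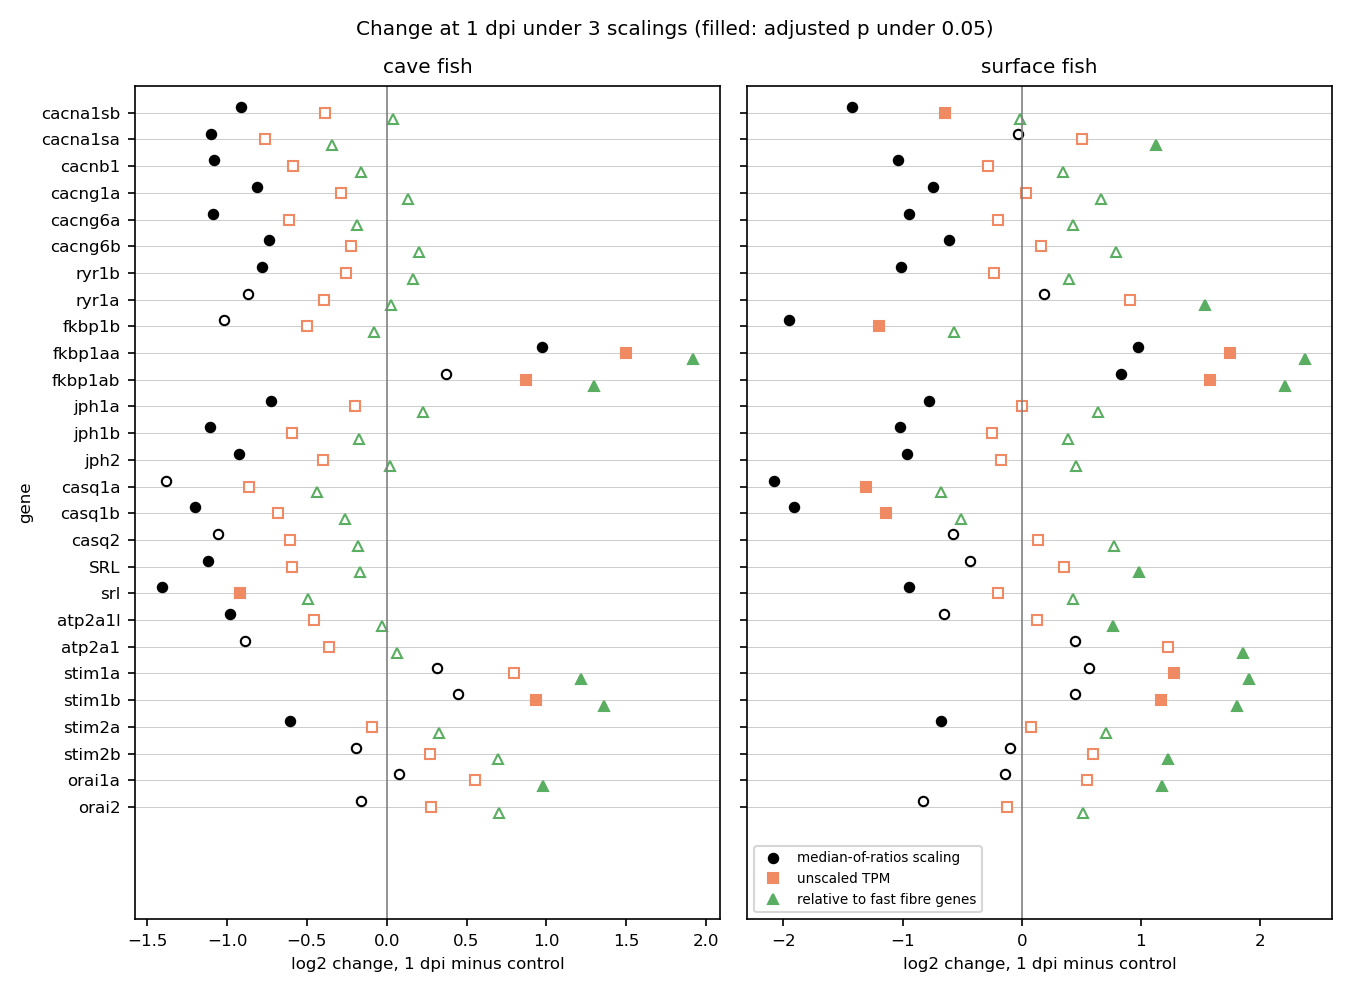
Change of 27 genes of the coupling machinery at 1 dpi in cave fish (left) and surface fish (right), as the log2 difference from the controls of the same form under 3 scalings; filled symbols have an adjusted p under 0.05. Most circles lie below 0 and most triangles above it in surface fish, while fkbp1aa lies above 0 under all 3 scalings in both forms.

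The voltage sensor was led by cacna1sb (ENSAMXG00000000179), which encodes its pore-forming subunit. In cave muscle at 1 dpi the 3 libraries held 426, 294 and 289 scaled TPM, against 755, 491 and 657 in cave controls. In surface muscle at 1 dpi they held 123, 123 and 86.9 scaled TPM, against 366, 259 and 272 in surface controls. No injured library reached a control library of its form, and every cave library was above every surface library of the same stage. The fall was -0.91 ± 0.22 in cave muscle (log2, SE; adjusted p = 0.00675) and -1.42 ± 0.22 in surface muscle (adjusted p = 0.000844), and both calls held when any 1 library was left out. With quantile normalization the cave change was -0.56 (adjusted p = 0.0876), and in unscaled TPM it was -0.39 (adjusted p = 0.25). The paralogue cacna1sa (ENSAMXG00000008958) held only 0.591 to 2.12 scaled TPM in cave muscle at 1 dpi, against 3.15 to 4.55 in cave controls. Its cave call (-1.10 ± 0.35, adjusted p = 0.0309) had an adjusted p of 0.253 without the 2 cave libraries with high skin markers, and 0.0633 to 0.139 without cave control replicates 2 or 3 or cave 1 dpi replicates 2 or 3.

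The smaller subunits of the sensor moved with it. cacnb1 (ENSAMXG00000031925), the cytoplasmic beta subunit, had 17.5, 11.2 and 18.2 scaled TPM in cave muscle at 1 dpi, against 36.3, 30.0 and 34.7 in cave controls. In surface muscle it had 15.5, 17.8 and 11.2 scaled TPM at 1 dpi, against 44.8, 31.9 and 20.8 in surface controls, so the groups were separate in both forms on scaled values. The change was -1.08 ± 0.26 in cave muscle (adjusted p = 0.00602) and -1.04 ± 0.26 in surface muscle (adjusted p = 0.0135). The surface call was lost without surface control replicate 1 or surface 1 dpi replicate 3 (adjusted p 0.0645 and 0.0616). The gamma subunits, small membrane proteins that modulate the channel, were also called lower in both forms: cacng1a (ENSAMXG00000041383) by -0.81 in cave and -0.74 in surface muscle, cacng6a (ENSAMXG00000030494) by -1.09 and -0.94, and cacng6b (ENSAMXG00000041585) by -0.74 and -0.61. The 3 cave calls held when any 1 library was left out, whereas each surface call was lost in 4 of 6 such fits: for cacng1a without surface control replicates 1 or 3 or surface 1 dpi replicates 1 or 3 (0.0513 to 0.0754), for cacng6a without surface control replicates 1 or 3 or surface 1 dpi replicates 1 or 2 (0.0692 to 0.103), and for cacng6b without the same libraries as cacng6a (0.0571 to 0.105). Counted by role, 6 of 6 tested genes of the sensor were called lower in cave muscle (all genes: 9.07%) and 5 of 6 in surface muscle (all genes: 6.41%). The adaptor gene stac3 (ENSAMXG00000032605), which tethers the sensor to the release channel, stayed at or below 0.182 scaled TPM in every library, and cacng1b was listed at 0. Whether the gene models of these entries capture their transcripts is unknown, so the low values do not show that the genes are not expressed.

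The release channel of fast muscle was represented by ryr1b (ENSAMXG00000035931). Cave muscle at 1 dpi held 106, 87.9 and 79.4 scaled TPM, against 143, 137 and 194 in cave controls. Surface muscle at 1 dpi held 136, 99.5 and 85.4 scaled TPM, against 228, 183 and 229 in surface controls. Injured and control libraries were separate in each form. The change was -0.78 ± 0.21 in cave muscle (adjusted p = 0.0131) and -1.01 ± 0.21 in surface muscle (adjusted p = 0.00513). The cave call was lost without cave control replicate 3 or cave 1 dpi replicate 3 (adjusted p 0.0696 and 0.0576) and without the 2 cave libraries with high skin markers (0.0594), and the surface call held in every such fit. The second copy, ryr1a (ENSAMXG00000008578), held 2.55% to 14.9% of the TPM of the ryr genes in a library and was not called at 1 dpi in either form. RYR2 and ryr2b, named after the heart isoform of mammals, stayed at or below 0.504 scaled TPM.

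The small proteins that bind the release channel, known as FKBP12 proteins, did not move together: fkbp1aa rose in both forms, whereas fkbp1b fell in surface muscle. fkbp1aa (ENSAMXG00000012980) had 181, 190 and 284 scaled TPM in cave muscle at 1 dpi, against 92.2, 132 and 104 in cave controls. It had 139, 135 and 123 scaled TPM in surface muscle at 1 dpi, against 75.9, 63.7 and 61.6 in surface controls. Every injured library was above every control library, and the rise was 0.98 ± 0.20 in cave (adjusted p = 0.00214) and 0.97 ± 0.20 in surface muscle (adjusted p = 0.00460), called under all 3 scalings and when any 1 library was left out. fkbp1ab (ENSAMXG00000036550), its near copy, rose in surface muscle by 0.84 ± 0.19 (adjusted p = 0.00936) with 33.1, 25.9 and 20.2 scaled TPM at 1 dpi, against 18.0, 12.2 and 12.7 in surface controls. In cave muscle fkbp1ab had 19.5 to 22.7 scaled TPM at 1 dpi, against 14.3 to 17.9 in controls, and was not called. How reads of such close copies were divided between them cannot be told from the table.

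fkbp1b (ENSAMXG00000032570), the paralogue named for the form that binds the heart channel in mammals, had lower values at 1 dpi. Surface muscle held 91.7, 25.1 and 9.42 scaled TPM at 1 dpi, against 219, 78.8 and 82.6 in surface controls. Cave muscle held 71.8, 36.7 and 70.9 scaled TPM at 1 dpi, against 101, 97.2 and 164 in cave controls. The surface groups overlapped and the cave groups did not, yet the call was made in surface muscle (-1.95 ± 0.60, adjusted p = 0.0390) and not in cave muscle (-1.02 ± 0.60, adjusted p = 0.238). The surface call was lost without surface control replicates 1 or 3 or surface 1 dpi replicates 2 or 3 (adjusted p 0.0502 to 0.175). Within each library, which no scaling affects, fkbp1b made up 26.1%, 14.9% and 18.9% of the summed FKBP12 TPM in cave muscle at 1 dpi, against 47.9%, 39.8% and 58.0% in cave controls. In surface muscle it made up 34.8%, 13.5% and 6.18% at 1 dpi, against 70.0%, 50.9% and 52.7% in surface controls. The shares at 1 dpi were below all control shares in both forms, and at 7 dpi they were 46.3% and 44.3% in cave and 48.2% and 56.5% in surface muscle. The fkbp1b level itself was 167 and 192 scaled TPM in cave muscle at 7 dpi, above every cave control, and 277 and 227 in surface muscle at 14 dpi, above every surface control. This share was chosen after the values of the 3 genes were seen and was not tested.

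**Figure D2:**
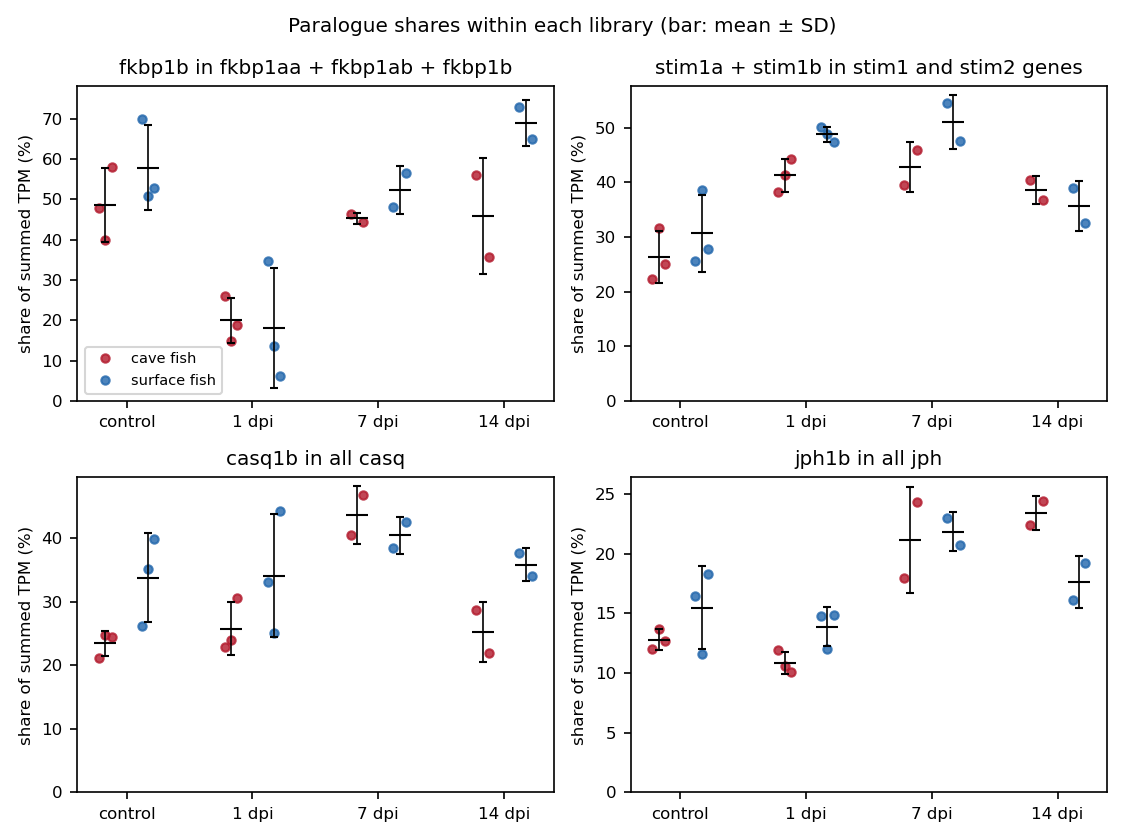
Share of a gene family's summed TPM held by the named genes in each library (percent), by stage, with cave fish in red and surface fish in blue and bars for mean ± SD. The fkbp1b share at 1 dpi lies below every control share of its form, and the stim1 share of surface fish at 1 dpi (47.4% to 50.2%) lies above its control share (25.6% to 38.7%).

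Junctophilins anchor the store to the membrane tubules, and all 3 tested genes were called lower in both forms at 1 dpi (all genes: 9.07% in cave and 6.41% in surface muscle). For jph1b (ENSAMXG00000032261) cave muscle held 60.6, 36.2 and 44.0 scaled TPM at 1 dpi, against 113, 86.3 and 104 in cave controls. Surface muscle held 90.9, 59.2 and 60.9 scaled TPM at 1 dpi, against 157, 119 and 151 in surface controls. The groups did not overlap in either form. The change was -1.11 ± 0.21 in cave (adjusted p = 0.00115) and -1.02 ± 0.21 in surface muscle (adjusted p = 0.00455), and both calls held when any 1 library was left out. jph2 (ENSAMXG00000002881), the most abundant of the family in most libraries, changed by -0.93 ± 0.25 in cave muscle (adjusted p = 0.0139) and -0.96 ± 0.25 in surface muscle (adjusted p = 0.0183). jph1a (ENSAMXG00000000441) changed by -0.72 ± 0.23 in cave muscle (adjusted p = 0.0299) and -0.78 ± 0.23 in surface muscle (adjusted p = 0.0319). The jph2 calls were lost without cave control replicate 1 or cave 1 dpi replicate 2 (0.0669 and 0.0704) and without surface control replicate 2 or surface 1 dpi replicate 3 (0.0687 and 0.0818). The jph1a calls were lost without cave control replicates 1 or 3 or cave 1 dpi replicates 2 or 3 (0.0855 to 0.128), and without surface control replicates 1 or 2 or surface 1 dpi replicates 2 or 3 (0.0811 to 0.101).

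At 1 dpi the largest called fall of a single gene in each form was among the calcium binders of the store, srl in cave and casq1a in surface muscle. Calsequestrin 1 is the high-capacity calcium buffer of the store, and its copy casq1b (ENSAMXG00000018267) had 39.4, 23.8 and 48.9 scaled TPM in cave muscle at 1 dpi, against 92.4, 71.7 and 87.6 in cave controls. In surface muscle it had 83.3, 44.8 and 21.8 scaled TPM at 1 dpi, against 232, 148 and 133 in surface controls. Injured libraries were below all controls in each form, by -1.20 ± 0.38 in cave (adjusted p = 0.0309) and -1.91 ± 0.38 in surface muscle (adjusted p = 0.00403). The surface call held in every fit without 1 library. The cave call did not hold without cave control replicates 1 or 3 or cave 1 dpi replicates 1 or 2 (0.0528 to 0.142). The other copy, casq1a (ENSAMXG00000034607), had 160, 115 and 21.3 scaled TPM in surface muscle at 1 dpi, against 638.5, 258 and 190 in surface controls (-2.08 ± 0.56, adjusted p = 0.0216; 0.102 without surface control replicate 1 and 0.0680 without surface 1 dpi replicate 3). In cave muscle casq1a had 69.5 to 127 scaled TPM at 1 dpi, against 195 to 334 in controls, and its change of -1.38 ± 0.56 was not called (adjusted p = 0.0869).

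Sarcalumenin, another protein of the store's interior, had 2 entries whose names differ in case, so the division of reads between them is uncertain. The minor one, srl (ENSAMXG00000018789), had 13.9, 11.5 and 10.2 scaled TPM in cave muscle at 1 dpi, against 36.4, 26.9 and 36.7 in cave controls (-1.41 ± 0.29, adjusted p = 0.00215). In surface muscle it had 20.3, 22.4 and 10.1 scaled TPM at 1 dpi, against 46.4, 30.8 and 25.5 in surface controls (-0.95 ± 0.29, adjusted p = 0.0363). Neither form's groups overlapped, and the surface call was lost without surface control replicates 1 or 2 or surface 1 dpi replicate 3 (0.0607 to 0.163). The major one, SRL (ENSAMXG00000038693), had 1626, 1066 and 1049 scaled TPM in cave muscle at 1 dpi, against 2320, 2213 and 3640 in cave controls (-1.12 ± 0.30, adjusted p = 0.0141). That call was lost without cave control replicate 3 or cave 1 dpi replicates 2 or 3 (0.0555 to 0.0740) and without the 2 cave libraries with high skin markers (0.0598). In surface muscle SRL had 965 to 2034 scaled TPM at 1 dpi, against 1551 to 2628 in controls, and was not called.

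The pump that refills the store was by far the most abundant member. atp2a1l (ENSAMXG00000020313) held 94.3% to 99.4% of the TPM of the atp2a genes in every library. Cave muscle at 1 dpi held 11302, 8872 and 7982 scaled TPM, against 19014, 17618 and 18394 in cave controls. Surface muscle at 1 dpi held 13982, 10607 and 11029 scaled TPM, against 17443, 19119 and 19074 in surface controls. On scaled values all injured libraries were below all controls of their form. In the deposited TPM this held in cave muscle only. The surface libraries there had 13464, 15177 and 21144 TPM at 1 dpi, against 11950 to 17158 in surface controls. The change was called in cave muscle (-0.98 ± 0.23, adjusted p = 0.00646; 0.0537 without the 2 cave libraries with high skin markers) and not in surface muscle (-0.65 ± 0.23, adjusted p = 0.0741), and the difference between these responses was not called. With quantile normalization the cave change was -0.17 (adjusted p = 0.739), and with no filter on low genes its adjusted p was 0.123. The minor entries atp2a1 and ATP2A1, whose reads may be shared with it, were not called at 1 dpi in either form.

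Store-operated entry had 1 call among its 7 tested genes in each form (all genes in either direction: 24.8% in cave and 14.8% in surface muscle). stim2a (ENSAMXG00000035165), a calcium sensor of the store, had 24.8, 22.3 and 19.7 scaled TPM in cave muscle at 1 dpi, against 28.8, 33.2 and 42.0 in cave controls. It had 21.0, 21.2 and 22.2 scaled TPM in surface muscle at 1 dpi, against 39.2, 30.3 and 35.9 in surface controls. Both forms had separate groups, with changes of -0.60 ± 0.16 in cave (adjusted p = 0.0109) and -0.68 ± 0.16 in surface muscle (adjusted p = 0.00936). The cave call was lost without cave control replicate 3 or cave 1 dpi replicate 3 (0.0619 and 0.0529) and without the 2 cave libraries with high skin markers (0.0828). The other 6 genes of this role, stim1a, stim1b, stim2b, orai1a, orai1b and orai2, were not called against controls in either form. Within libraries stim1a and stim1b together made up 38.2% to 44.3% of the summed TPM of the 4 stim1 and stim2 genes in cave muscle at 1 dpi, against 22.3% to 31.7% in cave controls, and 47.4% to 50.2% in surface muscle at 1 dpi, against 25.6% to 38.7% in surface controls. The shares did not overlap in either form.

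Most other genes that the name pattern takes in lie outside the triad. fkbp11 (ENSAMXG00000034476), a folding enzyme of the endoplasmic reticulum, had 1.72, 2.10 and 2.75 scaled TPM in cave muscle at 1 dpi, against 0.724, 0.379 and 0.515 in cave controls. In surface muscle it had 2.17, 1.23 and 1.23 scaled TPM at 1 dpi, against 0.423, 0.549 and 0.289 in surface controls. These low levels were separate in both forms, and the rise was 1.04 ± 0.18 in cave (adjusted p = 0.000568) and 0.82 ± 0.18 in surface muscle (adjusted p = 0.00649), called under all 3 scalings. A further 40 channel subunits were grouped outside the skeletal voltage sensor, among them CACNA2D1, although its product can also be part of that sensor. CACNA2D1 stayed at or below 0.409 scaled TPM, and whether its gene model captures its transcripts is unknown. Only 5 of these 40 subunits passed the filter. Of these, cacng7b (ENSAMXG00000031173) and cacng8b (ENSAMXG00000015925), named as subunits of the neuronal type, were called lower in cave muscle at 1 dpi, by -0.87 ± 0.27 and -0.87 ± 0.28 (adjusted p = 0.0288 and 0.0338). Neuron and glia markers summed to 98.2 to 195 TPM in cave muscle at 1 dpi against 218 to 252 TPM in cave controls, with 3 of 11 called lower (all genes: 9.07%), and their part in these calls was not tested. cacng7b had an adjusted p of 0.0725 to 0.131 without cave control replicate 1 or cave 1 dpi replicates 2 or 3, and 0.1 without the 2 cave libraries with high skin markers. cacng8b, at 0.140 to 2.74 scaled TPM in these groups, had 0.0513 to 0.163 without cave control replicates 1 or 3 or cave 1 dpi replicates 1 or 2.

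By 7 dpi most of these differences from the controls were no longer called. Against controls, cave muscle had 1 call, a higher one (all genes: 5.37% higher, 2.02% lower, 7.39% in either direction), and surface muscle had 1 higher and 2 lower (all genes: 3.11% higher, 1.49% lower, 4.6% in either direction). At 14 dpi cave muscle had 1 higher call (all genes: 6.22% higher, 3.87% lower, 10.1% in either direction). Surface muscle had 0 calls by limma, where 0% of all genes were called. There 2 of the 40 genes had an unadjusted p under 0.05, about as many as 40 tests give with no true difference. At that unadjusted threshold 13 of the 40 genes passed in cave and 12 in surface muscle at 7 dpi, and 6 in cave muscle at 14 dpi, where each injured group had only 2 libraries. A gene not called could still lie below every control at 7 dpi. In cave muscle atp2a1l held 11473 and 11273 scaled TPM (controls 17618 to 19014) and SRL 1313 and 1262 (controls 2213 to 3640). jph2 held 296 and 226 scaled TPM in cave muscle (controls 376 to 541) and 253 and 239 in surface muscle (controls 380 to 545). Other uncalled genes, such as casq1b in cave muscle, lay above every control. All stages of a form share the same control libraries, so their calls are not independent of each other.

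cacna1sb was still called lower in surface muscle at 7 dpi. Its surface libraries held 366, 259 and 272 scaled TPM in controls, 123, 123 and 86.9 at 1 dpi, 152 and 124 at 7 dpi, and 278 and 246 at 14 dpi. The change at 7 dpi was -1.10 ± 0.25 (adjusted p = 0.0220), which was lost without surface control replicate 1 or either 7 dpi library (0.0628 to 0.129). In cave muscle the libraries at 7 dpi (493 and 416 scaled TPM) and 14 dpi (439 and 460 scaled TPM) lay below the lowest control (491 scaled TPM) except for 1 library at 7 dpi, and neither stage was called. At 14 dpi the surface libraries overlapped their controls on scaled values and the cave libraries did not. The overlap in surface muscle rests on the scaling. In the deposited TPM its 14 dpi libraries had 165 and 163, below all surface controls (217 to 251). The response at 7 dpi was not called as different between the forms. jph1a was also called lower in surface muscle at 7 dpi, with 143 and 188 scaled TPM against 291 to 377 in surface controls (-1.06 ± 0.25, adjusted p = 0.0311). That call was lost without surface control replicates 1 or 2 or surface 7 dpi replicate 1 (0.0694 to 0.283).

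fkbp1aa stayed high. Its cave libraries held 173 and 220 scaled TPM at 7 dpi and 173 and 189 at 14 dpi, against 92.2 to 132 in cave controls, and were called at both stages (0.84 ± 0.22, adjusted p = 0.0322; 0.74 ± 0.22, adjusted p = 0.0472). Neither cave call held in unscaled TPM. The surface libraries of fkbp1aa held 148 and 116 scaled TPM at 7 dpi (0.96 ± 0.22, adjusted p = 0.0255) and 89.2 and 111 at 14 dpi (not called), against 61.6 to 75.9 in surface controls. Relative to the fast fibre genes fkbp1aa was not called higher at 7 or 14 dpi in either form. On scaled values all of these 7 and 14 dpi libraries were above all controls of their form. In the deposited TPM the 14 dpi libraries overlapped their controls. They had 52.9 and 73.2 TPM in surface muscle (controls 52.0 to 55.4), and 133 and 186 TPM in cave muscle (controls 87.1 to 135). Each call rested on few libraries: the 7 dpi cave call was lost without cave control replicates 1 or 3 or either 7 dpi library (0.0837 to 0.286), the 14 dpi cave call without cave control replicates 1 or 3 or either 14 dpi library (0.106 to 0.207), and the surface call without surface control replicates 2 or 3 or surface 7 dpi replicate 1 (0.0572 to 0.257).

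**Figure D3:**
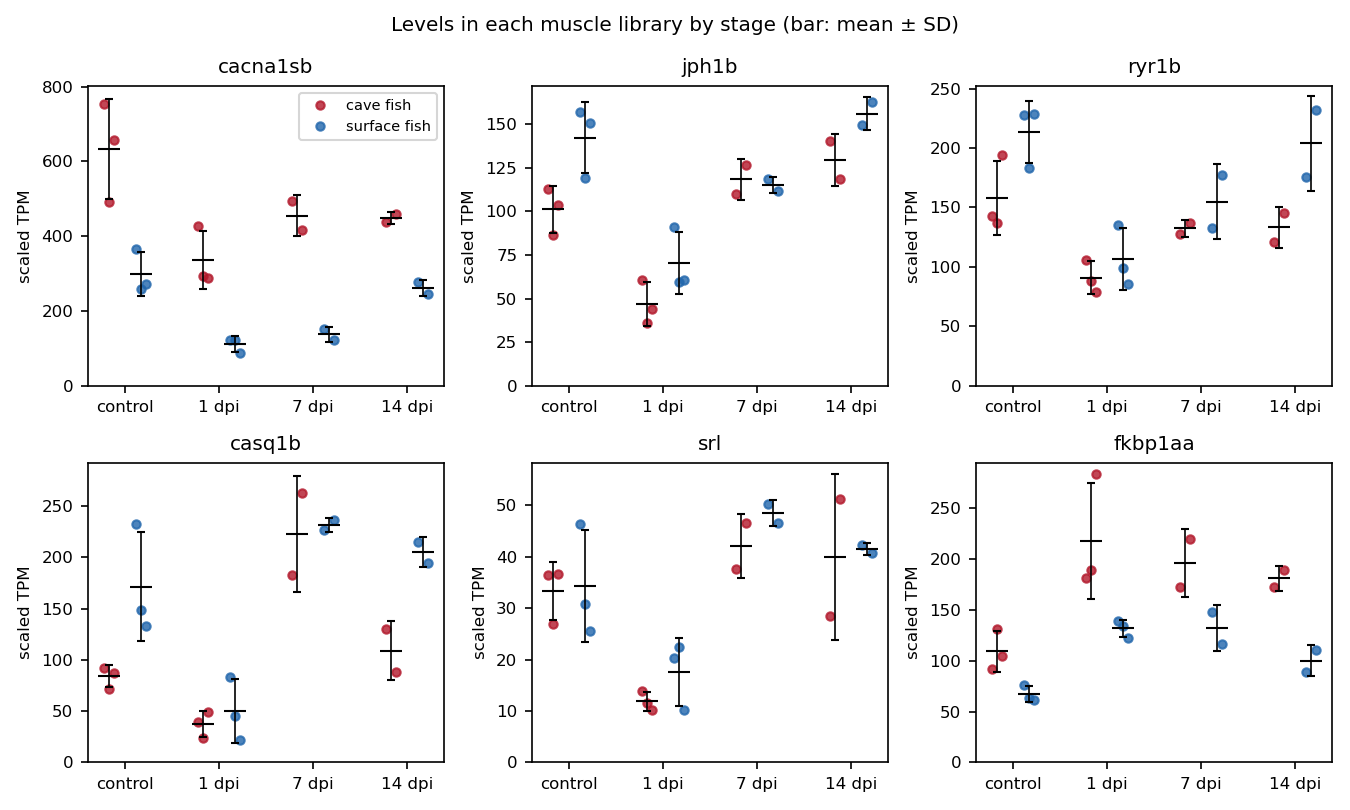
Scaled TPM of 6 genes in every library by stage, with cave fish in red, surface fish in blue and bars for mean ± SD. cacna1sb is higher in cave than in surface libraries at every stage, and casq1b is lowest at 1 dpi and high at 7 dpi in both forms. On this scale fkbp1aa is above its controls at every stage after injury.

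Between 1 and 7 dpi, the luminal calcium binders casq1b and srl, the minor sarcalumenin entry, rose in both forms. The major entry, SRL, was not called in either form. It held 1313 and 1262 scaled TPM in cave muscle at 7 dpi, against 1626, 1066 and 1049 at 1 dpi. In surface muscle SRL held 1050 and 1576 scaled TPM at 7 dpi, against 2034, 1696 and 965 at 1 dpi. In cave muscle 6 genes were called higher at 7 dpi than at 1 dpi and 0 lower (all genes: 4.28% higher, 5.31% lower, 9.58% in either direction), and in surface muscle 3 were called higher and 0 lower (all genes: 2.2% higher, 2.19% lower, 4.39% in either direction). casq1b held 183 and 263 scaled TPM in cave muscle at 7 dpi against 39.4, 23.8 and 48.9 at 1 dpi, a difference of 2.58 ± 0.42 (adjusted p = 0.00155). It held 227 and 237 scaled TPM in surface muscle at 7 dpi against 83.3, 44.8 and 21.8 at 1 dpi, a difference of 2.39 ± 0.42 (adjusted p = 0.00610; 0.0553 without surface 7 dpi replicate 2). Both 7 dpi cave libraries were also above every cave control (71.7 to 92.4 scaled TPM), a difference that was not called (1.38 ± 0.42, adjusted p = 0.0583). srl rose by 1.74 ± 0.32 in cave muscle (adjusted p = 0.00324; 0.0573 without cave 7 dpi replicate 2) and by 1.48 ± 0.32 in surface muscle (adjusted p = 0.0185; 0.0512 to 0.105 without either 7 dpi library or surface 1 dpi replicate 3).

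The triad genes jph1b and cacng1a rose over the same interval in cave muscle. jph1b had 110 and 127 scaled TPM at 7 dpi, against 60.6, 36.2 and 44.0 at 1 dpi (1.34 ± 0.23, adjusted p = 0.00214). cacng1a had 229 and 230 scaled TPM at 7 dpi, against 119, 83.8 and 102 at 1 dpi (1.18 ± 0.22, adjusted p = 0.00380). Both calls held when any 1 library was left out. cacnb1 rose by 1.32 ± 0.29 (adjusted p = 0.00906), a call lost without either 7 dpi library (0.0784 and 0.0806). casq2 (ENSAMXG00000002106), the calsequestrin of heart and slow fibres in mammals, rose by 1.69 ± 0.51 (adjusted p = 0.0463), with 12.1 and 32.2 scaled TPM at 7 dpi against 5.09 to 5.65 at 1 dpi, and was lost without cave 7 dpi replicate 2 or any 1 dpi library (0.0848 to 0.441). Slow and cardiac-like fibre markers summed to 909 TPM in cave 7 dpi replicate 1 and 2035 TPM in replicate 2, which has the higher casq2 level, against 834 to 1110 TPM in cave muscle at 1 dpi, and their part in this rise was not tested. In surface muscle fkbp1b rose by 2.51 ± 0.67 (adjusted p = 0.0460), lost without either 7 dpi library or surface 1 dpi replicates 2 or 3 (0.113 to 0.196).

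These rises are also relative to the scaling. Set against the fast fibre genes, which had a median change of 0.72 in cave and 1.01 in surface muscle over this interval, 17 of the 40 genes were called lower and 1 higher in cave muscle (all genes: 65.4% lower, 0.628% higher), and 30 lower and 2 higher in surface muscle (all genes: 75.7% lower, 0.349% higher), where the median of all genes was -1.17 and -1.27. On that scale casq1b was still 1.33 higher in cave and 1.01 higher in surface muscle at 7 than at 1 dpi. The srl rises were smaller on that scale than on scaled values in both forms, and their size there is not given. In unscaled TPM casq1b was 2.13 and 1.98 higher. Within libraries casq1b made up 40.4% and 46.8% of casq TPM in cave muscle at 7 dpi, against 22.8%, 23.9% and 30.5% at 1 dpi, which did not overlap. In surface muscle the share was 38.4% and 42.5% at 7 dpi, against 33.1%, 25.0% and 44.2% at 1 dpi, which did overlap.

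Among the 40 genes the largest difference between the forms averaged over stages was in cacna1sb. Cave controls held 634 ± 133 scaled TPM and surface controls 299 ± 58.4 (SD, n = 3 each), a difference of 1.07 ± 0.22 (adjusted p = 0.00563 by limma). At 1 dpi cave muscle held 336 ± 77.7 scaled TPM and surface muscle 111 ± 21.0 (SD, n = 3 each), a difference of 1.58 ± 0.22 (adjusted p = 0.000248 by limma). The difference was 1.72 ± 0.27 at 7 dpi (adjusted p = 0.00125) and 0.78 ± 0.27 at 14 dpi, which was not called (adjusted p = 0.0696), although no cave library was as low as a surface library at either stage. Averaged over the 4 stages it was 1.29 ± 0.12 (adjusted p = 1.48e-06), and this call held in every alternative and without any 1 library. The calls at controls, 1 dpi and 7 dpi held without any 1 library as well.

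Over the 4 stages 13 of the 40 genes were called, 6 higher and 7 lower in cave muscle, a share of the same size as among all genes (18.4% higher, 14.1% lower, 32.6% in either direction). This number was 7 when surface 7 dpi replicate 2 was left out, and also 7 without the 2 cave libraries with high skin markers. fkbp1aa was higher in cave muscle by 0.70 ± 0.11 (adjusted p = 0.000206), fkbp10b, an enzyme of collagen folding, by 0.60 ± 0.16 (adjusted p = 0.0115) and cacng1a by 0.40 ± 0.11 (adjusted p = 0.0121). These calls held when any 1 library was left out. cacng7b was higher by 0.51 ± 0.15 (adjusted p = 0.0181; 0.0535 without cave 14 dpi replicate 1).

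CASQ2 (ENSAMXG00000038552), the second entry with that name, differed by -0.75 ± 0.09 between cave and surface muscle (adjusted p = 2.63e-05), at very low levels. Cave libraries ranged over 0.175 to 0.527 scaled TPM and surface libraries over 0.747 to 2.01, so no library of one form reached the other on scaled values. In the deposited TPM the ranges overlapped narrowly, at 0.17 to 0.64 in cave and 0.58 to 2.32 in surface libraries. cacng6a differed by -0.53 ± 0.15 (adjusted p = 0.0122), and both calls held when any 1 library was left out. The abundant genes ryr1b, jph1a, jph1b and atp2a1l had differences of -0.37, -0.39, -0.32 and -0.40 (adjusted p 0.0251 to 0.0426). Each of these 4 calls was lost in 4 to 14 of 20 fits without 1 library and with quantile normalization, which gave -0.19 to -0.24. orai2, a channel subunit of store-operated entry, had a difference of -0.46 ± 0.15 (adjusted p = 0.0343), lost in 11 of 20 such fits. fkbp11 had 0.27 ± 0.10 (adjusted p = 0.0469), lost in 14 of 20. All of ryr1b, jph1a, jph1b, atp2a1l, orai2 and fkbp11 were lost without surface 7 dpi replicate 2 (0.0663 to 0.12).

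**Figure D4:**
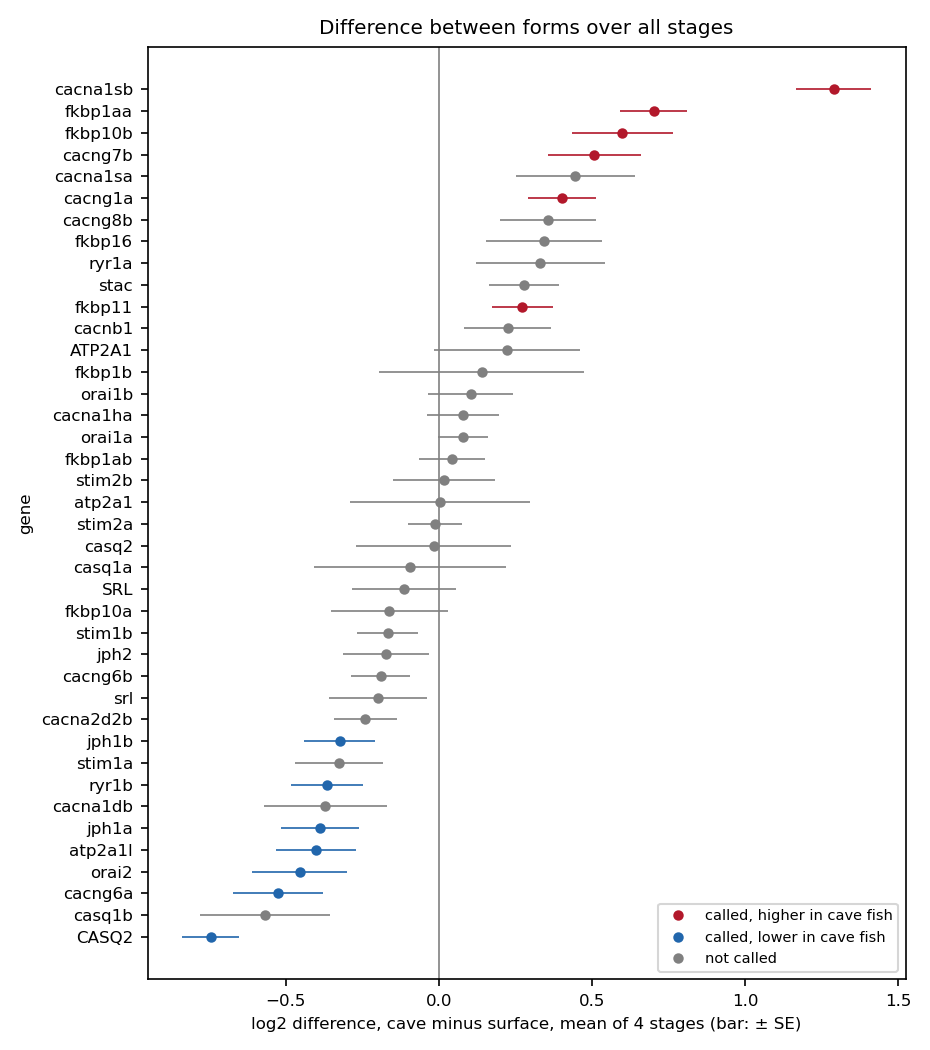
Log2 difference between cave and surface fish averaged over 4 stages for the 40 genes tested (cave minus surface, bars ± SE), with called genes in red (higher in cave fish) or blue (lower in cave fish). cacna1sb (1.29) lies far from the other genes, and CASQ2 (-0.75) is at the other end.

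By stage, the forms differed in few of these genes. In controls 3 were called higher and 2 lower in cave muscle (all genes: 4.58% higher, 4.16% lower, 8.74% in either direction), and the count was 2 to 4 when 1 library was left out. Besides cacna1sb these were fkbp1aa (0.69 ± 0.20), cacng7b (0.98 ± 0.27), CASQ2 (-0.73 ± 0.17) and orai2 (-1.07 ± 0.28), whose cave controls held 5.05, 3.46 and 6.25 scaled TPM against 7.74, 12.9 and 14.0 in surface controls. Of these only the cacna1sb call held without any 1 library. The fkbp1aa call was lost without cave control replicates 2 or 3 or surface control replicates 2 or 3 (0.0755 to 0.168), and the cacng7b call without cave control replicates 1 or 2 or surface control replicate 1 (0.0694 to 0.162). The orai2 call was lost without cave control replicates 1 or 2 or surface control replicates 2 or 3 (0.0633 to 0.108), and the CASQ2 call without surface control replicate 2 (0.0576). At 1 dpi 2 were called higher, cacna1sb and fkbp1aa, and 1 lower, CASQ2 (all genes: 7.05% higher, 4.56% lower, 11.6% in either direction). The fkbp1aa call was lost without any 1 of the 1 dpi libraries other than cave 1 dpi replicate 1 (0.0553 to 0.15). At 7 dpi the 1 call was cacna1sb (all genes: 2.55% higher, 2.01% lower, 4.56% in either direction). At 14 dpi 1 was called higher, fkbp1aa, and 3 lower, CASQ2, cacng6a and atp2a1l (all genes: 6.92% higher, 5.24% lower, 12.2% in either direction), and leaving out surface 14 dpi replicate 1 gave 0 calls, cave 14 dpi replicate 1 gave 2 and cave 14 dpi replicate 2 gave 1. The cacng6a call was lost without any 1 of the 14 dpi libraries (0.0552 to 0.278), and the atp2a1l and fkbp1aa calls without surface 14 dpi replicate 1 or either cave library (0.0503 to 0.238 and 0.0762 to 0.235). With quantile normalization atp2a1l differed by -0.23 (adjusted p = 0.734) and cacng6a had an adjusted p of 0.0621. In unscaled TPM the adjusted p was 0.149 for atp2a1l, 0.328 for cacng6a and 0.0956 for CASQ2.

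None of the 40 genes was called by limma for a difference in the injury response between the forms at 1, 7 or 14 dpi, where 0.113%, 0.0474% and 0.0296% of all genes were called. At an unadjusted p under 0.05 there were 1, 2 and 2 of the 40, about as many as 40 tests give with no true difference. They were cacna1sa at 1 dpi, orai2 and stac at 7 dpi, and atp2a1l and cacng6b at 14 dpi.

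Other genes of excitation and calcium handling outside these families were followed as a list of 60 tested genes. At 1 dpi 9 were called higher and 17 lower in cave muscle, with a list median of -0.35, and 9 higher and 9 lower in surface muscle, with a list median of -0.12. Among all genes 15.7% were higher and 9.07% lower in cave muscle, and 8.35% higher and 6.41% lower in surface muscle. The list's 9 higher calls in cave muscle were therefore at about the background share. Its 17 lower calls there were a larger share than among all genes. The calcium-binding chaperone calr3b, a calreticulin of the endoplasmic reticulum, rose by 2.64 ± 0.32 in cave muscle (adjusted p = 3.57e-05) and 2.07 ± 0.32 in surface muscle (adjusted p = 0.000837). The calumenin calub rose by 1.74 ± 0.25 (adjusted p = 0.000134) and 1.83 ± 0.25 (adjusted p = 0.000387), and the calmodulin gene calm3b, which encodes a calcium sensor of the cytosol, by 1.23 ± 0.21 (adjusted p = 0.000522) and 1.02 ± 0.21 (adjusted p = 0.00446). clcn1b, a chloride channel that steadies the fibre membrane, was lower in surface muscle at 1 dpi (-1.54 ± 0.21, adjusted p = 0.000379), with mean levels of 5.30 scaled TPM at 1 dpi against 17.5 in controls. Relative to the fast fibre genes its surface change was -0.2 (adjusted p = 0.609). In cave muscle clcn1b held 6.04 to 6.82 scaled TPM at 1 dpi, against 8.81 to 17.95 in cave controls.

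Between the forms, klhl41a, a Kelch protein that stabilises sarcomere proteins, had a mean of 48.9 scaled TPM in cave controls against 13.3 in surface controls, and averaged 1.41 ± 0.18 higher in cave muscle over the stages (adjusted p = 3.49e-05). At 1 dpi the forms had like levels, with means of 41.6 scaled TPM in cave and 40.5 in surface muscle. The inositol trisphosphate receptor itpr1a, a calcium release channel of most cells, was higher by 0.53 ± 0.07 (adjusted p = 5.79e-05). The mitochondrial genes VDAC2 and micu3b, of the outer membrane channel and of the calcium uniporter's regulators, were lower by -0.90 ± 0.13 (adjusted p = 0.000101) and -0.92 ± 0.14 (adjusted p = 0.000201). At 14 dpi smdt1a, which encodes the uniporter subunit EMRE, had a mean of 12.5 scaled TPM in cave muscle against 41.0 in surface muscle (-1.65 ± 0.29, adjusted p = 0.00265). This last call was lost in unscaled TPM (-1.18, adjusted p = 0.0722) and relative to the fast fibre genes (-1.17, adjusted p = 0.254).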

How the data were processed

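Polyadenylated RNA of 20 skeletal muscle libraries was sequenced as stranded libraries with single 75-base reads, per the labels' protocols. Reads were handled by STAR 2.7.3a and RSEM 1.3.0, per the submitters' processing notes. Which genome build and annotation were used is not given in the sources used here; gene positions and sequences are therefore left out. The authors deposited 1 table of TPM values for 27420 genes, and each library sums to a fixed total, so depth is unknown and precision rests on the number of libraries. The labels also hold a note on sampling around a 24-hour cycle, which goes against the sample labels and was not used.

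Each library's TPM were divided by a median-of-ratios factor (0.593 to 1.92) taken over the 9467 genes that no library had below 1 TPM. The 16884 genes that reached 1 TPM in 2 or more libraries were analysed as log2(scaled TPM + 1) with limma 3.58.1 in R 4.3.3, with 1 mean for each of 8 groups, 12 residual degrees of freedom and a mean-variance trend, in 16 comparisons; the adjusted p threshold was 0.05. The procedure was tested on simulated data. The members, lists and tests were chosen with earlier results of these data known. Named genes were the skeletal muscle core, up to 6 further called members per comparison, and the 4 list genes with the smallest adjusted p; a few others in the text were chosen after their values were seen.

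The main fit had no replicate block. Same-numbered libraries of surface controls and surface 1 dpi deviated from their group means together (correlations 0.137, 0.108 and 0.235). An alternative fit treated the number as pairing these libraries, although the labels give no source, and called 19 members there against 17. The same correlations were 0.082, -0.199 and -0.265 between cave controls and cave 1 dpi. Between the controls of the 2 forms they were 0.0964, 0.202 and 0.00299. These values do not establish what the number means. Alternatives were another pseudocount (0.1), no filter, a filter at mean TPM of 5, unscaled TPM, quantile normalization, fits of the compared groups only, a replicate block and each library left out. Chosen after seeing the data were values relative to 21 fast fibre genes, the block within surface controls and 1 dpi, the fkbp1b share, and fits without the 2 cave libraries with high skin markers.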

Additional observations from a re-analysis of the deposited data

Results flagged for a closer look

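atp2a1l, the main calcium pump gene, differed between the forms at 14 dpi in that, on scaled values, every library of one form lay on the other side of its controls from every library of the other. Cave muscle at 14 dpi held 12648 and 9789 scaled TPM, against 19014, 17618 and 18394 in cave controls. Surface muscle at 14 dpi held 26739 and 19937 scaled TPM, against 17443, 19119 and 19074 in surface controls. The difference of the responses (cave minus surface) was -1.04 on the log2 scale and was not called by limma (adjusted p = 0.208). The side of the surface libraries rests on the scaling: in the deposited TPM they had 15867 and 13175, inside the surface controls (11950 to 17158), while the cave libraries had 9782 and 9618 TPM, below the cave controls (15356 to 19441). The scaling factors of the surface 14 dpi libraries were 0.593 and 0.661.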

How the results depend on the processing

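The values below are counts of member genes called in each comparison, then log2 changes. They are out of the 40 genes except with no filter or with the mean TPM filter. With no filter, members below the main filter were also tested, and the mean TPM filter left fewer members. The share of all genes under these settings is given above for some counts only, so the others cannot be set against a background. With no filter, 3 were called in cave muscle at 14 dpi against controls (1 in the fit described above), and 20 between the forms averaged over stages (13). With a mean TPM of at least 5, the counts against controls were 5 in surface muscle at 7 dpi (3), 2 in cave muscle at 7 dpi (1) and 3 in cave muscle at 14 dpi (1). Unscaled TPM gave 6 in cave muscle at 1 dpi (19), 1 in surface muscle at 7 dpi (3) and 2 between the controls of the forms (5). It also gave 4 higher and 0 lower in cave against surface muscle at 14 dpi (1 and 3), and 9 higher and 2 lower averaged over stages (6 and 7), where the median of all genes moved by 0.39 and 0.16. Quantile normalization gave 3 in cave muscle at 7 dpi (1), 2 at 14 dpi (1) and 2 between the forms at 7 dpi (1). Fits of the compared groups only gave 3 in surface muscle at 1 dpi (17), 0 in surface muscle at 7 dpi against controls (3) and against 1 dpi (3), 2 and 0 in cave muscle at 7 and 14 dpi (1 and 1), and 1 and 0 between the forms in controls and at 14 dpi (5 and 4). These fits have fewer libraries, and the cause of these differences was not tested.

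With the replicate block over all groups, 5 were called in surface muscle at 7 dpi (3), 2 and 3 in cave muscle at 7 and 14 dpi (1 and 1), and 8 between the forms at 14 dpi (4); 73 of 76 single calls held. Within surface controls and surface 1 dpi, where the numbers were treated as pairs, the block gave 19 calls (17) and no call was lost. Same-numbered libraries of the same form had a median correlation of deviations of 0.0592 over 26 pairs, against -0.0477 over 48 pairs with different numbers. Deviations from a group mean cancel within the group, so these values depend on each other and the pairs are not independent. Without the 2 cave libraries with high skin markers, 2 were called between the controls of the forms (5) and 7 averaged over stages (13), and 31 of 48 single calls held.

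Relative to the fast fibre genes the counts were 7 in cave muscle at 1 dpi (19), 0 in surface muscle at 7 dpi (3), 2 in cave muscle at 14 dpi (1), both lower where the single call was higher, 32 and 18 at 7 against 1 dpi in surface and cave muscle (3 and 6), and 1, 0 and 4 between the forms in controls, at 14 dpi and averaged (5, 4 and 13). In cave muscle the count at 7 dpi was 1 lower in place of 1 higher on that scale, and the count at 14 dpi was 1 lower in place of 1 higher in unscaled TPM. Calls changed sign under 2 settings. In unscaled TPM, surface muscle at 1 dpi had jph1a at 0.00649, stim2a at 0.0805, cacng1a at 0.0373 and cacng6b at 0.159. Relative to the fast fibre genes, surface muscle at 1 dpi had jph1a at 0.637, jph2 at 0.454, srl at 0.431, cacng6a at 0.430, cacnb1 at 0.344, jph1b at 0.385, stim2a at 0.711, ryr1b at 0.4, cacng1a at 0.668 and cacng6b at 0.790. Cave muscle at 1 dpi had cacna1sb at 0.0365, jph1a at 0.225, jph2 at 0.0221, cacng7b at 0.0610, stim2a at 0.329, ryr1b at 0.167, cacng1a at 0.136 and cacng6b at 0.2, and cacng1a was at -0.0729 in cave muscle at 7 against 1 dpi. Among the list genes outside the families, the potassium channel gene kcnj11 was at -0.117 on that scale in surface muscle at 7 against 1 dpi (1.22). The cause was not tested.

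When each library was left out in turn, counts ranged over 10 to 15 in surface muscle at 1 dpi, 12 to 19 in cave muscle at 1 dpi, 0 to 3 in surface and 0 to 1 in cave muscle at 7 dpi, 0 to 1 in cave muscle at 14 dpi, and 0 to 5 and 3 to 6 at 7 against 1 dpi in surface and cave muscle. Between the forms they ranged over 2 to 4 in controls, 2 to 4 at 1 dpi, 1 to 1 at 7 dpi, 0 to 4 at 14 dpi and 7 to 13 averaged. Each call was refitted without each library of its comparison, which gave 614 values over all calls, and none changed sign. Of 76 single calls, 31 held in all of their own fits. A pseudocount of 0.1 changed no count by more than 1.5 times, and 71 of 76 calls held. Without counts, the precision at low levels such as those of CASQ2 and fkbp11 is unknown.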
